A study of Mus musculus with 14 samples.

Results

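Small RNA of mouse small intestinal crypt cells was compared between the Sox9 Negative and Sox9 Low gates of a sort by green fluorescence. The mice were of strain C57BL/6J and carried Sox9eGFP, a reporter in which green fluorescent protein follows the activity of the transcription factor gene Sox9, and all groups share that reporter. The compared samples are the 3 libraries labelled Negative and the 3 labelled Low, 6 of the 14 libraries in the series. The others are 3 High, 3 Sublow and 2 Non-sorted libraries. In this reporter mouse the Low gate has been linked to stem cells of the crypt base, the Sublow gate to dividing progenitors, and the Negative gate to mature cell types. The labels used here state neither age, sex nor cell number per gate, and do not say whether libraries of a group came from separate animals. Every p-value therefore reflects library-to-library spread alone, which may be technical.

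A microRNA (miRNA) is a short RNA cut from 1 arm, 5p or 3p, of a hairpin precursor. It pairs with messenger RNAs mainly through its seed, bases 2 to 8 from its 5′ end, and lowers their output. In the gut, miR-192, miR-194 and miR-215 are driven by hepatocyte nuclear factors of the epithelium. miR-375 and miR-7 are prominent in hormone-producing endocrine cells. The let-7 family is known for building up as cells mature.

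The table lists 2030 miRNA entries: 534 at the annotated start of a mature miRNA and 1496 whose name carries a signed number, read here as a shifted start. Values are reads per 1000000 miRNA reads (RPM), so every library has the same total. Steps between low values put the depth of the 6 libraries at 4.03 to 16.0 M reads (M, 1000000 reads). The search for the step assumed a smallest value near 10 reads, so the depths rest on that setting. Under it, entries below about 10 reads appear as 0. Of all entries, 588 reached 10 RPM in at least 3 of the 14 libraries and were tested. Differences are Negative minus Low on the log2(RPM + 1) scale, which understates changes of low entries. Libraries correlated at a Pearson r across tested entries of 0.902 to 0.987 within Negative, 0.902 to 0.938 within Low and 0.674 to 0.844 between the groups.

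The libraries also differ in a way the gates do not describe. miR-295-3p, a miRNA of pluripotent cells, stood at 0, 395 and 0 RPM in Low 1 to 3 and at 839, 669 and 0 RPM in Negative 1 to 3. The whole miR-290 to miR-295 cluster made up 0 to 0.336% of a Negative library. It was listed in 7 of the 14 libraries, among them all 5 of sequencing lane L006, which holds Negative 1 and Negative 2. Low 1 and Negative 3 share lane L005, and Low 2 and Low 3 combine lanes. Results are therefore also given without the libraries that list miR-295-3p. That leaves 2 Low libraries and 1 Negative library. For entries and their sums by seed, the spread is assumed to be that of the other groups. For the arm and start ratios given further below, it comes from the 2 Low libraries alone. Some results are also given with a lane term, which treats combined lanes as a lane of their own. Apart from Low 2 and Low 3, only High libraries combine lanes, and the remaining High library is the only one of its lane. The Low side of the lane-term fit therefore rests on Low 1 alone, and passing or failing in it is a weak check.

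The mature sequences below carry many of the main differences, with the seed in capitals. They come from RefSeq (assembly GRCm38.p6), which held 227 of the 275 tested annotated-start entries. miR-375-3p, miR-378-3p, miR-5109 and miR-5115 were not matched there and are not shown. The first set was higher in Negative, apart from miR-192-5p, which is shown for the seed it shares with miR-215-5p.
miR-215-5p: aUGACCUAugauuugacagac
miR-192-5p: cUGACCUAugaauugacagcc
miR-194-1-5p: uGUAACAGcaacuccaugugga
miR-194-1-3p: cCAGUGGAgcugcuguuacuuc
miR-215-3p: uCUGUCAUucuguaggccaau
miR-22-3p: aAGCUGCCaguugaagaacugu
miR-31-5p: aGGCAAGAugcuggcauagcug
miR-203-3p: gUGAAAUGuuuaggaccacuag
miR-802-5p: uCAGUAACaaagauucauccuu
miR-103-2-3p: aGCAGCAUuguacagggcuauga

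The second set was lower in Negative. It shows miR-7a next to miR-7b, let-7e next to the most abundant let-7, the 3 miRNAs of the miR-99b transcript, further members of 3 groups of shared seed (miR-25 and miR-92, miR-148 and miR-152, miR-181), and miR-184-3p and miR-1224-5p for their large decreases.
miR-7a-1-5p: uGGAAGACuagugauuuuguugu
miR-7b-5p: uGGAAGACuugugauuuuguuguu
let-7b-5p: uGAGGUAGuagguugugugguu
let-7e-5p: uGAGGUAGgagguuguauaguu
miR-99b-5p: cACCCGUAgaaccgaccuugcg
miR-125a-5p: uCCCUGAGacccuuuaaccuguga
miR-92a-1-3p: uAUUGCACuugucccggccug
miR-92b-3p: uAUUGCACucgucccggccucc
miR-25-3p: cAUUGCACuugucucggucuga
miR-148a-3p: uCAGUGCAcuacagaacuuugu
miR-152-3p: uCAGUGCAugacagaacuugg
miR-181c-5p: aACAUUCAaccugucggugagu
miR-181d-5p: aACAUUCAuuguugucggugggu
miR-184-3p: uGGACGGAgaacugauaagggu
miR-1224-5p: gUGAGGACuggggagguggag

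Negative libraries were dominated by 3 hairpin families. miR-192, miR-194 and miR-215, summed over all start forms, took 59.9, 59.7 and 60.0% of Negative 1 to 3 against 19.4, 22.3 and 20.3% of Low 1 to 3. miR-215 alone rose from 4.96% ± 0.45 (SD, n = 3) to 35.1% ± 0.55. miR-194 rose from 1.56% ± 0.19 to 14.6% ± 0.48, while miR-192 stood at 14.1% ± 2.1 in Low and 10.1% ± 0.18 in Negative. The let-7 family with miR-98 held 32.8% ± 1.1 of Low and 15.8% ± 0.29 of Negative. miR-375 went from 6.62% ± 1.4 to 0.0967% ± 0.030 and miR-7 from 6.04% ± 0.20 to 0.424% ± 0.070. In each Low library 10 entries held the first 50% of the total, and in each Negative library 3 did. These shares and counts keep every hairpin copy. Copies of equal mature sequence, as in let-7, miR-7 and miR-194, may therefore count the same reads more than once. A bulk sample of sorted cells cannot tell fewer cells of a type from less RNA per cell.

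**Figure D1:**
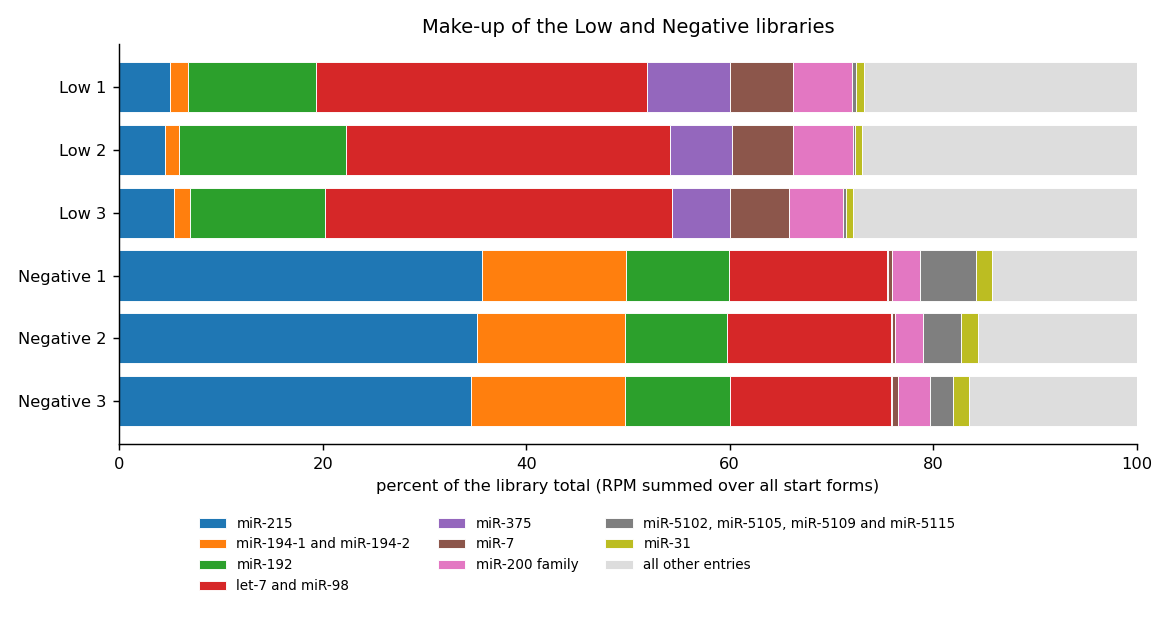
Share of each library's total (percent, x axis) held by miRNA families, all start forms and hairpin copies summed, in the 3 Low and 3 Negative libraries (bars). miR-215, miR-194 and miR-192 together fill 59.7 to 60.0% of the Negative bars and 19.4 to 22.3% of the Low bars.

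Of the 588 tested entries, 388 passed an adjusted p of 0.05 in limma (66%), 97 higher in Negative (16.5%) and 291 lower (49.5%). Among 275 annotated-start entries 176 passed (64%), of which 20 were higher (7.27%) and 156 lower (56.7%). Among 313 shifted-start entries 212 passed (67.7%), of which 77 were higher (24.6%) and 135 lower (43.1%). The median difference was -0.90 over all tested entries and -0.98 over those at the annotated start, in libraries that share a fixed total. Median-ratio rescaling, which sets the typical entry to no change, moved the contrast by a median of 0.84 on the log2 scale. It left 267 calls (45.4%), 136 higher (23.1%) and 131 lower (22.3%), so that 50.9% of calls were higher against 25% before. Among annotated-start entries it left 118 calls (42.9%), 39 higher (14.2%) and 79 lower (28.7%). The corresponding share was 39.8% with quantile normalization and 53.9% with the total taken without miR-192, miR-194 and miR-215. Changes smaller than about 0.84, and some slightly larger ones such as miR-93-5p at -0.90, therefore depend on the scale. The rescaled value is given where it turns the direction.

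**Figure D2:**
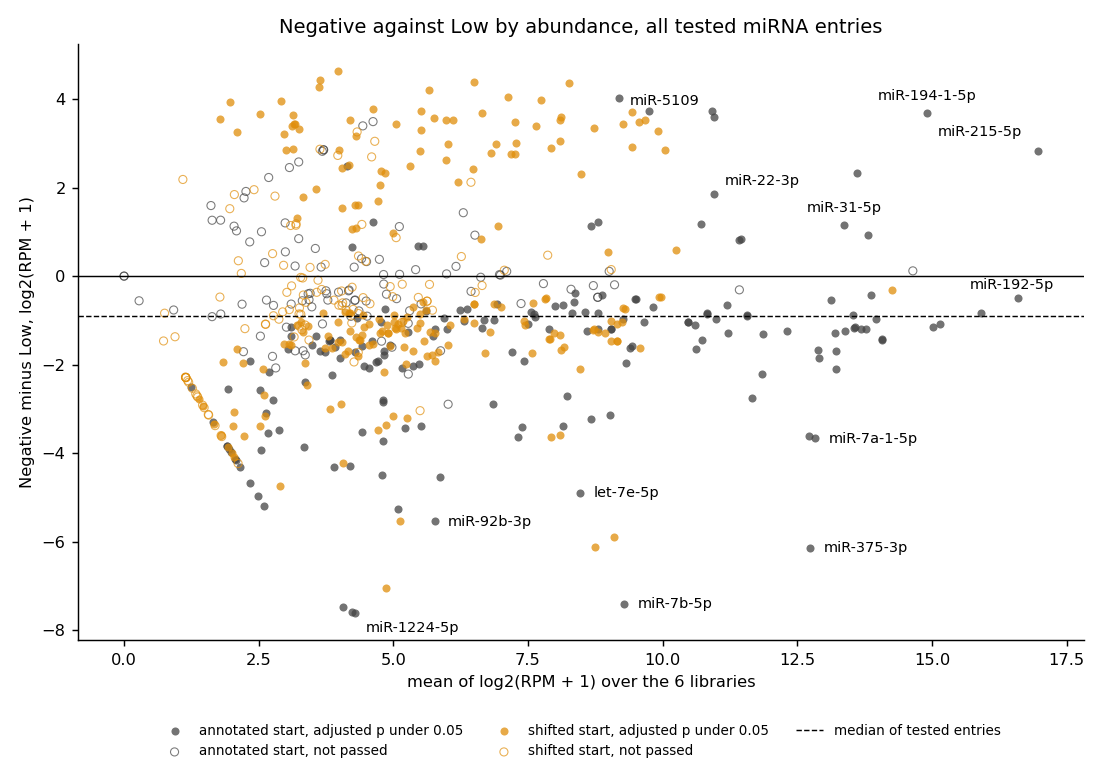
Difference of Negative minus Low (y axis, log2(RPM + 1)) against the mean level over the 6 libraries (x axis, same scale) for the 588 tested entries. Dark points are annotated starts, orange points shifted starts, and open points did not pass. The dashed line is the median of -0.90, and the diagonal at the lower left is made of entries listed at 0 in every Negative library.

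Without the libraries that list miR-295-3p, 487 entries passed the filter and 286 were called (58.7%), 60 higher (12.3%) and 226 lower (46.4%). A lane term left 279 calls. Of the 30 annotated-start miRNAs named by size of change, 29 passed without the miR-295-3p libraries and 29 with the lane term. The exception in both was miR-5115. Each of these fits rests on few libraries of a gate, as given above, so passing in them is a weak check.

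miR-215-5p was the most abundant entry of every Negative library. It reached 345077, 341051 and 335102 RPM there against 49283, 43681 and 52462 RPM in Low, with no overlap (difference 2.82, SE 0.12, limma adjusted p = 3.10e-09). Its other arm, miR-215-3p, stood at 7253, 6829 and 6675 RPM against 579, 561 and 578 RPM (3.59, SE 0.11, adjusted p = 4.85e-10). The 3 libraries of each gate lay close together, and the gates were far apart, for both arms.

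miR-194-1 lies next to miR-215 in the mouse gene table, within 10 kb on the same strand, and its arms rose by like amounts. miR-194-1-5p was at 105883, 110365 and 112607 RPM in Negative and 9731, 7178 and 8933 RPM in Low (3.68, SE 0.14, adjusted p = 1.84e-09). miR-194-1-3p was at 3191, 3268 and 2932 RPM against 306, 172 and 249.7 RPM (3.72, SE 0.22, adjusted p = 3.76e-08). The 4 entries of this neighbour pair thus rose by 2.82 to 3.72.

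The second pair of neighbours, miR-192 and miR-194-2, had calls in both directions on the deposited scale. miR-192-5p was the most abundant entry of Low, at 102955, 139528 and 112233 RPM, and stood at 82704, 82655 and 82816 RPM in Negative. It fell by 0.50 on the log2 scale (SE 0.13, adjusted p = 0.0055), turned to 0.37 after median-ratio rescaling and to 0.48 with the total without these families, and did not pass with a lane term (adjusted p = 0.121). miR-194-2-3p, the arm that tells this hairpin from miR-194-1, was at 510.1, 399 and 593 RPM in Low and 426, 611 and 579.9 RPM in Negative, which overlap (0.11, SE 0.22, adjusted p = 0.667, and 0.98 with an adjusted p of 0.00267 after rescaling). miR-194-2-5p rose by 2.32 (adjusted p = 1.55e-07), but its mature sequence is that of miR-194-1-5p, and how reads that match both hairpins were assigned is not given in the sources used here. After rescaling all 3 of these entries were higher, so the opposite calls rest on the deposited scale.

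Entries with a matched RefSeq sequence were also summed by seed. Entries without one, among them miR-375-3p, miR-378-3p, miR-30d-5p, miR-5109 and miR-5115, are in no sum. Of 293 seeds 183 differed (62.5%), 33 higher (11.3%) and 150 lower (51.2%). Where hairpin copies of equal sequence differ by over 5%, a sum holds both and may count shared reads more than once. miR-192-5p and miR-215-5p share the seed UGACCUA. Their sequences differ by C1A, A12U and C20A, counted from the 5′ end of miR-192-5p. Together they went from 152238, 183209 and 164695 RPM in Low to 427781, 423707 and 417918 RPM in Negative (1.35, SE 0.10, adjusted p = 2.58e-07). The owner of the seed changed: miR-215-5p made up 29.4% ± 4.8 (SD, n = 3) of the sum in Low and 80.4% ± 0.24 in Negative. The seed GUAACAG of miR-194 rose from 14206 to 137479 RPM on average (3.28, SE 0.13, adjusted p = 1.01e-09).

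In the list of miR-192, miR-194 and miR-215 arms, 4 of 7 tested members rose, 1 fell and 2 did not pass (median 2.82), against 7.27% higher and 56.7% lower over annotated-start entries. After rescaling 6 were higher and 0 lower, and without the miR-295-3p libraries the counts were again 4 and 1.

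All 4 members of a short list of differentiation-linked miRNAs were higher in Negative, with a median of 1.15. Over annotated-start entries 7.27% were higher, and 14.2% after rescaling, when all 4 members were again higher. This list and the others used here were drawn up with earlier results of these data known. Their counts therefore describe the members and give no independent support. miR-22-3p, known for slowing growth in epithelial tumours, was at 3529, 3929 and 3863 RPM in Negative and 1060.3, 1213 and 885 RPM in Low (1.85, SE 0.15, adjusted p = 3.92e-07). miR-203-3p, which promotes differentiation in the epidermis, was at 2473, 2663 and 2402 RPM against 1094, 1321 and 965 RPM (1.17, SE 0.22, adjusted p = 5.08e-04). Neither overlapped between the gates, which was also true of most tested entries. miR-802-5p, a miRNA of liver and gut epithelium, reached 537, 514 and 789.6 RPM against 287, 246 and 292 RPM (1.13, SE 0.26, adjusted p = 0.00201). miR-378-3p, encoded in an intron of the metabolic coactivator gene Ppargc1b, reached 18139, 20410.1 and 20657 RPM against 9723, 9901 and 11654 RPM (0.92, SE 0.14, adjusted p = 1.05e-04). The lowest Negative library was above the highest Low library for both.

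miR-31-5p, which is linked to crypt regeneration, was at 15794, 16571 and 15002 RPM in Negative and 7693, 6399.7 and 7168 RPM in Low (1.16, SE 0.14, adjusted p = 2.21e-05). The other member of that list, miR-21-5p, overlapped between the gates, at 19809.8, 30888 and 24211 RPM in Low and 23179, 27102 and 30176 RPM in Negative (0.12, SE 0.15, adjusted p = 0.479, and 1.0 after rescaling). miR-103-2-3p, encoded within a pantothenate kinase gene like its relative miR-107, rose from 1963, 2160.2 and 2182 RPM to 3548, 4216 and 3527 RPM (0.84, SE 0.16, adjusted p = 7.47e-04). Its copy miR-103-1-3p had nearly the same values and is not separate evidence. miR-107-3p, with the same seed, was at 591 RPM on average in Low and 514.5 RPM in Negative (-0.20, adjusted p = 0.327, and 0.68 after rescaling). miR-1981-5p rose from 295.3 to 679 RPM on average (1.22, SE 0.22, adjusted p = 4.94e-04).

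The remaining large increases were in miR-5109 and miR-5115, whose reads do not sit at 1 start. miR-5109 was at 2231, 2939.8 and 1993 RPM in Negative and 175, 94.8 and 181 RPM in Low (4.02, SE 0.24, adjusted p = 4.46e-08). It is listed at 17 starts, from 8 bases before to 8 bases after the annotated one, and the annotated start held 16.8% of its reads in Negative. In miR-215-5p that share was 98.9%. miR-5115 was at 16889, 7308 and 2803 RPM in Negative and 1243, 366 and 326 RPM in Low (3.73, SE 1.09, adjusted p = 0.0100). The library labelled 1 was highest in both gates, and the difference did not pass with a lane term (adjusted p = 0.426) or without the miR-295-3p libraries (2.14, adjusted p = 0.343). With miR-5102 and miR-5105 these entries summed to 5.54, 3.80 and 2.28% of Negative 1 to 3 and 0.225 to 0.476% of the Low libraries.

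Shifted-start increases came largely from the same names. Of the 77 shifted entries that were higher, 49 belong to names from miR-5100 to miR-5199, 18 to miR-192, miR-194 or miR-215, and 10 to others. The 10 are start forms of miR-103-1-3p, miR-103-2-3p, miR-203-3p, miR-22-3p, miR-31-5p, miR-378-3p and miR-378b. The largest by the naming rule were miR-5102 with a start of -3 (4.38), miR-5105 with starts of +6 (4.36), +7 (4.05) and +5 (3.98), and miR-194-1-5p with a start of -1 (4.20). The last stood at 197, 214.6 and 236 RPM in Negative and 11.0, 9.17 and 12.4 RPM in Low.

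**Figure D3:**
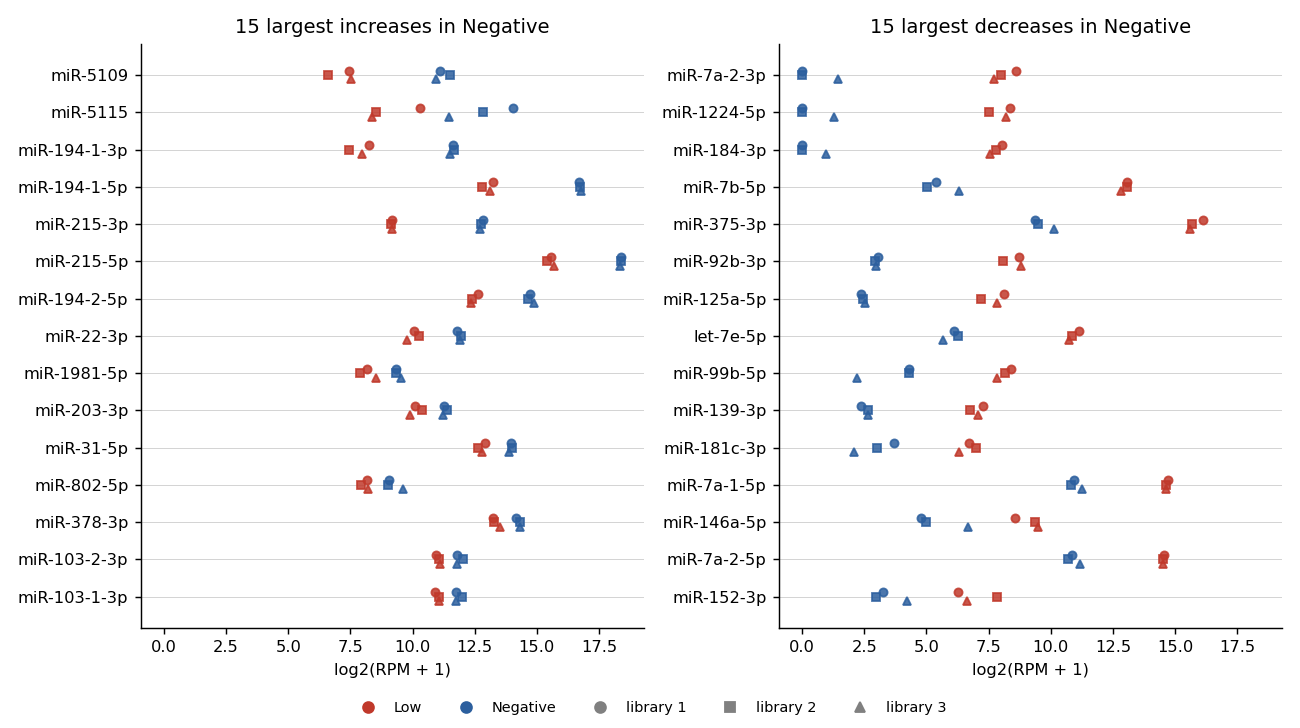
Level in each library (x axis, log2(RPM + 1)) of the 15 annotated-start miRNAs with the largest increases (left) and decreases (right) in Negative. Red marks are Low and blue marks Negative, with circle, square and triangle for libraries 1, 2 and 3. Rows were chosen to have no overlap between the gates, so what the plot adds is the size of each gap and the spread within a gate.

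Among the decreases, all 7 tested members of the endocrine and sensory list were lower in Negative, against 56.7% of annotated-start entries, and all 7 stayed lower after rescaling, with a lane term and without the miR-295-3p libraries. The median was -4.17, and -3.66 over the 5 that are above 0 in some Negative library. The others, miR-153-3p and miR-129-1-5p, could pass the filter only through other groups. Of the members not tested, miR-96-5p and miR-9-1-5p fell short of the filter and miR-124-3p has no entry. The list was also drawn up with earlier results of these data known. miR-375-3p, the most abundant of the tested members, was at 71632, 53119 and 49474 RPM in Low and 657, 724 and 1129.6 RPM in Negative (-6.14, SE 0.23, adjusted p = 1.84e-09). Negative 3 held the highest of the Negative values, still far under the lowest Low value. All 6 tested start forms of miR-375-3p fell, and those with starts of +1, -1 and +2 were among the 5 largest shifted decreases (-6.11, -5.90 and -5.53).

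miR-7 is made from several hairpins with the seed GGAAGAC. miR-7b-5p was at 8649.6, 8511 and 7162 RPM in Low and 40.7, 31.8 and 78.4 RPM in Negative (-7.40, SE 0.33, adjusted p = 4.51e-09). miR-7a-1-5p was at 26665, 25669 and 25380.4 RPM against 1956, 1795 and 2426 RPM (-3.66, SE 0.26, adjusted p = 1.75e-07). Over their shared length the mature forms differ only by A10U. miR-7b-5p held 14% ± 1.0 (SD, n = 3) of the seed sum in Low and 1.20% ± 0.38 in Negative, so the 7a form made up nearly all of what was left. The seed sum fell from 57640 to 4044 RPM on average (-3.85, SE 0.26, adjusted p = 6.99e-08). The sum also holds the copy miR-7a-2-5p, which had like values and the same mature sequence, so both may hold the same reads. If so, the sum is too large and the 7b share too small. The passenger arm of this copy, miR-7a-2-3p, which is its own sequence, was at 384, 254 and 208 RPM in Low and 0, 0 and 1.75 RPM in Negative (-7.61, SE 0.45, adjusted p = 3.76e-08).

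miR-1224-5p and miR-184-3p, known from brain and eye, followed the same pattern. miR-1224-5p was at 331, 181 and 294.5 RPM in Low and 0, 0 and 1.44 RPM in Negative (-7.60, SE 0.45, adjusted p = 3.76e-08). miR-184-3p was at 263, 224 and 188 RPM in Low and 0, 0 and 0.94 RPM in Negative (-7.49, SE 0.30, adjusted p = 2.45e-09). Since these Negative values are near the reporting floor, the size of the fold depends on the added 1 RPM. miR-153-3p, a neuronal miRNA, was at 19.7, 20.1 and 16.7 RPM in Low and is listed at 0 in all Negative libraries. The sensory-organ miRNAs miR-182-5p and miR-183-5p of 1 cluster fell least within the list. miR-182-5p went from 12485, 14436 and 13448 RPM to 4029.6, 4363 and 4307 RPM (-1.67, SE 0.10, adjusted p = 3.70e-08) and miR-183-5p fell by 1.58 (adjusted p = 1.83e-07).

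Some tested entries were listed in Low but in no Negative library. There were 40 such entries among the 588 tested, at 0 in all 3 Negative libraries and above 0 in some Low library. Of these, 19 were called, against 66% of all tested entries, and 12 of the 19 are at the annotated start. They could pass the filter only through libraries outside Negative, so these counts partly reflect the filter. Other gates may list them too, as Sublow did miR-99b-3p at 9.90 RPM on average. The most abundant of the 12 was miR-455-3p, chosen here for that level, at 44.1, 30.5 and 33.5 RPM in Low. In the other direction 3 entries, all shifted starts, were at 0 in all Low libraries and above 0 in some Negative library.

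miR-99b, let-7e and miR-125a, which are cut from 1 transcript, all fell. All 5 tested members of that cluster list were lower, against 56.7% of annotated-start entries, and stayed lower under every scaling and with a lane term. The median was -4.90, also over the 3 that are above 0 in some Negative library. miR-99b-3p and miR-125a-3p, at 0 in every Negative library, could pass the filter only through libraries outside Negative. That they were lower was thus set by the filter. let-7e-5p was at 2274, 1873 and 1686 RPM in Low and 68.4, 75.9 and 49.5 RPM in Negative (-4.90, SE 0.22, adjusted p = 4.51e-09). miR-125a-5p was at 274, 144 and 229.6 RPM against 4.11, 4.48 and 4.75 RPM (-5.27, SE 0.26, adjusted p = 7.63e-09). miR-99b-5p was at 335, 288 and 228 RPM against 18.8, 18.9 and 3.56 RPM (-4.53, SE 0.47, adjusted p = 4.95e-06). No Negative library reached the lowest Low library for any of them, and Negative 3 was the lowest of its group for miR-99b-5p.

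let-7e-5p also belongs to the let-7 family. All 9 tested let-7 and miR-98 members were lower in Negative (median -1.16), against 56.7% and a median of -0.98 for annotated-start entries. After rescaling 5 were lower (28.7% over annotated-start entries), 1 was higher and 3 did not pass. let-7e-5p differed by -4.90 and the 8 others by -1.69 to -0.43. let-7b-5p, the most abundant, went from 85493, 69034 and 93868 RPM to 44365, 46370.5 and 48094 RPM (-0.83, SE 0.14, adjusted p = 2.46e-04, and 0.048 after rescaling). let-7g-5p fell by 0.43 and let-7i-5p by 1.69, and the first turned to 0.45 after rescaling. let-7e-5p made up 0.649% ± 0.11 (SD, n = 3) of the seed sum in Low and 0.0443% ± 0.0092 in Negative. The whole GAGGUAG sum fell from 300428 to 145996 RPM (-1.04, SE 0.086, adjusted p = 5.55e-07), and its rescaled difference of -0.16 did not pass (adjusted p = 0.107).

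The seed AUUGCAC of miR-25 and miR-92, known from growth-promoting clusters, fell from 24171 to 6364 RPM (-1.92, SE 0.17, adjusted p = 8.23e-07). miR-92b-3p fell most, from 417, 272 and 443 RPM to 7.30, 6.71 and 6.92 RPM (-5.54, SE 0.27, adjusted p = 7.60e-09). It was a minor part of the sum in both gates, at 1.55% ± 0.22 (SD, n = 3) in Low and 0.111% ± 0.015 in Negative. miR-25-3p fell by 2.21 and miR-92a-1-3p by 1.84 (adjusted p = 4.46e-08 and 6.04e-05).

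Both miR-92a-1-3p and miR-25-3p belong to the list of the miR-17-92 cluster and its relatives. Of its 14 tested members 5 fell, these included, 0 rose and 9 did not pass (median -0.35), against 56.7% of annotated-start entries lower. After rescaling they were the 2 lower members, and 1 was higher. miR-17-5p, which represses cell cycle inhibitors, was at 467, 573 and 534 RPM in Low and 378, 384 and 364 RPM in Negative, which did not overlap but did not pass (-0.48, adjusted p = 0.166, and 0.40 after rescaling). miR-20a-5p gave -0.30 (adjusted p = 0.464, and 0.58 after rescaling). miR-93-5p, cut from the transcript of miR-25, fell by 0.90 (adjusted p = 1.17e-04, -0.02 after rescaling).

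The cell cycle regulators miR-221-3p and miR-222-3p come from 1 cluster on chromosome X and repress the inhibitor Cdkn1b. miR-222-3p went from 335, 265 and 349.7 RPM to 37.4, 31.9 and 59.5 RPM (-2.89, SE 0.27, adjusted p = 2.02e-06). miR-221-3p went from 557, 569 and 676 RPM to 288, 312 and 413 RPM (-0.84, SE 0.18, adjusted p = 0.0016), which turned to 0.03 after rescaling and did not pass with a lane term (adjusted p = 0.154). The difference between these 2 decreases was not tested.

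Among 4 tested miR-181 members, all were lower (56.7% over annotated-start entries), and 2 after rescaling (28.7%), miR-181c-5p and miR-181d-5p. miR-181c-5p was at 1064, 1627 and 1112 RPM in Low and 133, 159.9 and 109.9 RPM in Negative (-3.22, SE 0.24, adjusted p = 2.67e-07). miR-181d-5p fell by 3.13 (adjusted p = 1.41e-08) and the passenger arm miR-181c-3p by 3.73 (adjusted p = 4.64e-06). The seed sum ACAUUCA fell by 1.64 (adjusted p = 4.89e-08). Within it, miR-181c-5p and miR-181d-5p held 19.8% ± 3.5 and 24.2% ± 1.3 (SD, n = 3) in Low and 6.62% ± 1.3 and 8.62% ± 0.82 in Negative.

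The seed CAGUGCA of miR-148 and miR-152 fell by 2.45 (SE 0.21, adjusted p = 6.36e-07). miR-148a-3p, its main form, was at 7079, 9628 and 8616 RPM in Low and 1082, 1064 and 1688 RPM in Negative (-2.75, SE 0.22, adjusted p = 5.42e-07). miR-152-3p went from 76.8, 229 and 99.2 RPM to 8.61, 6.92 and 17.6 RPM (-3.43, SE 0.44, adjusted p = 3.10e-05). miR-148b-3p fell by 0.43 (adjusted p = 0.0170), turned to 0.44 after rescaling, and did not pass without the miR-295-3p libraries (adjusted p = 0.637).

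miR-191-5p and miR-425-5p, neighbours in an intron, fell by 2.10 and 1.63 (adjusted p = 1.30e-07 and 6.63e-07) and stayed lower after rescaling. miR-139-3p, from 156, 107 and 132 RPM to 4.11, 5.29 and 5.19 RPM, fell by 4.49 (SE 0.22, adjusted p = 7.38e-09). miR-10b-5p, which lies in a Hox cluster, fell by 3.41 (SE 0.26, adjusted p = 2.67e-07). Of the 8 tested members of the miR-200 family, which maintains epithelial identity, 6 fell and 2 did not pass (median -0.85), near the 56.7% lower and the median of -0.98 over annotated-start entries. After rescaling 1 was lower, miR-141-3p, and 1 higher. All miR-200 family forms together made up 5.63% ± 0.29 (SD, n = 3) of Low and 2.85% ± 0.28 of Negative.

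In the miR-30, miR-23/27/24, miR-26, miR-15/16 and miR-29 lists 4 of 5, 4 of 5, 2 of 2, 2 of 5 and 1 of 2 tested members fell and none rose, against 56.7% lower over annotated-start entries. Rescaled, the same lists in the same order held 1, 0, 0, 1 and 1 higher and 1, 2, 1, 0 and 0 lower members. miR-26a-2-5p, an abundant growth-restraining miRNA, went from 30322, 27049 and 27302 RPM to 9567, 10787 and 11050.4 RPM (-1.43, SE 0.10, adjusted p = 1.75e-07). miR-30d-5p fell by 1.30 (adjusted p = 6.07e-06). In the miR-34 and miR-449 list 1 of 2 fell, miR-34c-5p, from 28.1, 15.1 and 24.3 RPM to 0, 0 and 2.37 RPM (-3.93, SE 0.62, adjusted p = 1.57e-04). miR-210-3p, induced by hypoxia, gave 0.65 (adjusted p = 0.0368), a call lost with a lane term (adjusted p = 0.0812), without the miR-295-3p libraries (0.374) and in 4 of the fits that left out 1 library (up to 0.137).

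**Figure D4:**
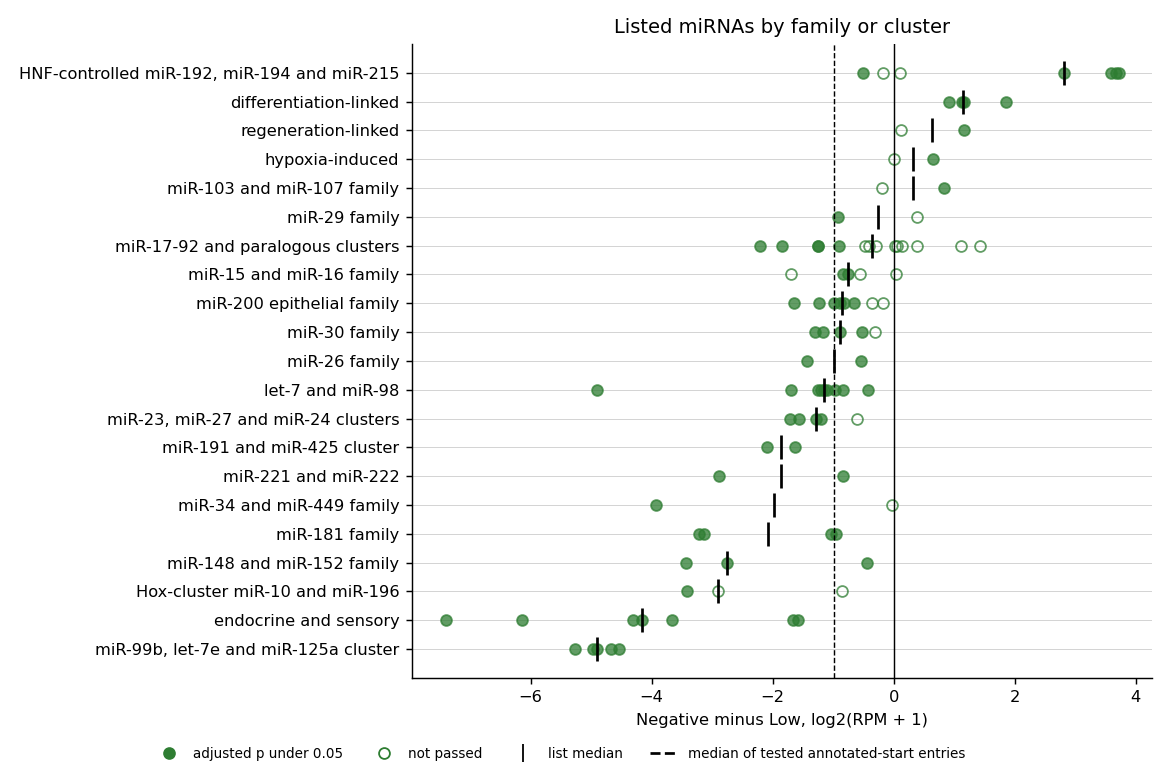
Difference of Negative minus Low (x axis, log2(RPM + 1)) for the tested members of each family or cluster list (rows, ordered by list median). Filled points passed an adjusted p of 0.05, bars are list medians and the dashed line is the annotated-start median of -0.98. The miR-99b cluster and the endocrine list lie furthest left, at medians of -4.90 and -4.17.

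Markers of other cell types were measured as well. The 7 haematopoietic and immune markers summed to 606 to 863 RPM in Low and 37.4 to 207 RPM in Negative, with 6 of 7 above 0 in some library and miR-142-3p at 0 in all. Of 5 tested, 3 fell, 0 rose and 2 did not pass, a share near the 56.7% lower over annotated-start entries. Among the 3, miR-155-5p overlapped between the gates, at 103, 42.4 and 86.8 RPM in Low and 13.5, 6.51 and 46.7 RPM in Negative. Its limma call (adjusted p = 0.0366) was lost after rescaling (adjusted p = 0.231). miR-146a-5p, also 1 of the largest decreases, was at 373, 663 and 706 RPM in Low and 26.6, 30.9 and 102 RPM in Negative (-3.64, SE 0.48, adjusted p = 3.69e-05, and -2.32 without the miR-295-3p libraries). It is expressed by immune cells and by some epithelia, and the part of immune cells in its decrease was not tested. miR-150-5p, a lymphocyte miRNA, was at 74.2, 0 and 39.1 RPM in Low and 0, 0 and 39.4 RPM in Negative, high only in libraries without miR-295-3p. Mesenchymal markers summed to 33.3 to 95.7 RPM in Low and 19.4 to 34.5 RPM in Negative, with 4 of 7 above 0 and 1 of 2 tested lower. Erythroid markers summed to 11.9 to 32.4 and 9.88 to 33.9 RPM and endothelial ones to 0 to 12.6 and 0.81 to 5.09 RPM, with 0 calls in 1 tested member each in limma, also at an unadjusted p of 0.05.

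Sublow libraries are not in the contrast, though they enter the filter and the spread of the fit. The Sublow mean was between those of Low and Negative for all 15 of the largest decreases and for 13 of the 15 largest increases, miR-103-1-3p and miR-103-2-3p being the exceptions. Over the 176 called annotated-start entries it was between for 160. All these entries were picked for a gap between Low and Negative, which makes a mean in between more likely. The share over all tested entries was not taken. For miR-215 the share of the library was 24.9% in Sublow, for miR-375 1.77% and for miR-7 1.77%.

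The 5p and 3p arms of 1 hairpin can be compared within a library, where the fixed total cancels. Of 51 hairpins with both arms above 0 in all 6 libraries, 16 changed their 5p to 3p ratio (31.4%), 11 towards 5p (21.6%) and 5 towards 3p (9.8%). let-7d showed it with 2 arms of separate sequence: the 5p arm made up 94.5, 96.6 and 95.3% of both arms in Low and 98.7, 97.9 and 98.4% in Negative (log2 ratio difference 1.48, SE 0.29, adjusted p = 0.00468). let-7d-3p fell by 2.72 and let-7d-5p by 1.25. In miR-194-2 the 5p share went from 91.7% ± 1.8 (SD, n = 3) to 98.1% ± 0.38 (2.21, SE 0.28, adjusted p = 3.65e-04), with the 5p sequence shared with miR-194-1. Both kept an adjusted p under 0.05 when any 1 library was left out, at most 0.0419 and 0.0096.

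The shifts of miR-215 and miR-423 were smaller and did not pass in every fit that left out 1 library. The 5p share of miR-215 was 98.8% ± 0.090 in Low and 98.0% ± 0.058 in Negative (-0.78, SE 0.24, adjusted p = 0.0297, and up to 0.15 without 1 library). That of miR-423 was 70.9% ± 1.2 against 59.5% ± 1.8 (-0.73, SE 0.25, adjusted p = 0.0446, and up to 0.236). Without the miR-295-3p libraries the arm ratios have 1 Negative library and a spread from 2 Low libraries alone, so that fit cannot decide them.

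Start positions changed little. Over 114 miRNAs with both annotated and shifted starts above 0 in all 6 libraries, the shifted share had a median of 5.59% in Low and 5.6% in Negative. The ratio differed by less than 0.5 on the log2 scale in 94 of them, and 2 passed (1.75%), 1 in each direction (0.877%), with 15 at an unadjusted p under 0.05. In miR-148a-3p the shifted share was 2.19, 1.95 and 2.0% in Low and 1.43, 1.36 and 1.34% in Negative (-0.58, SE 0.096, adjusted p = 0.0438). The other was miR-1940, outside the naming rule for its low level and named after its values were seen, where the share went from 7.5% ± 1.2 (SD, n = 3) to 19.2% ± 4.8 (1.53, adjusted p = 0.0438). Either call was lost without some single library, with adjusted p up to 0.234.

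**Figure D5:**
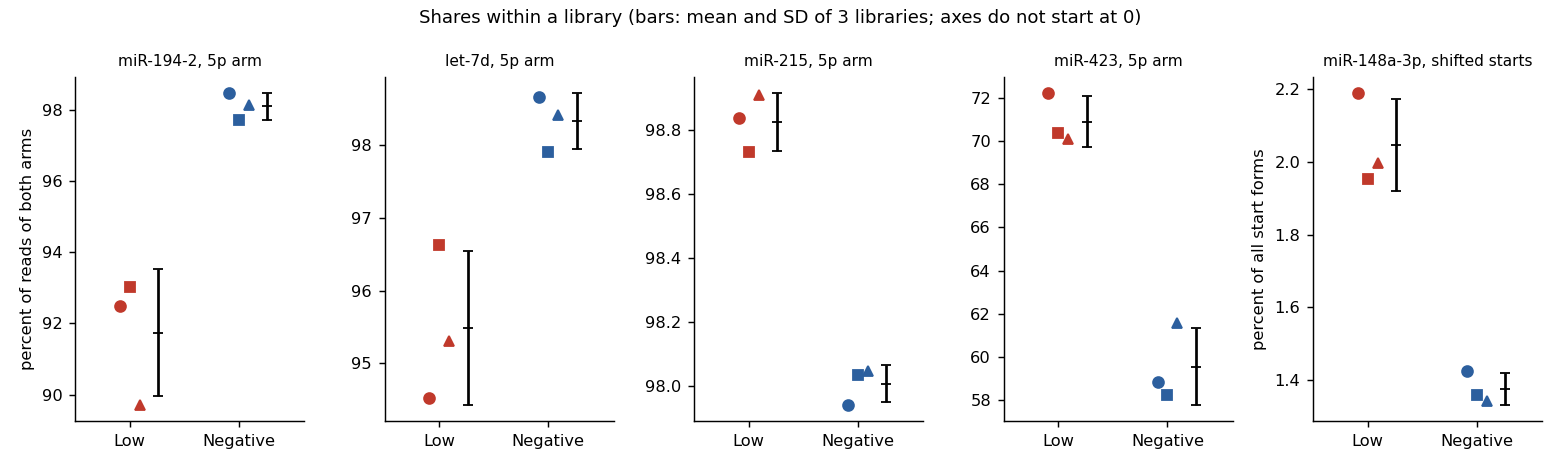
Percent of the reads of both arms that fall on the 5p arm (first 4 panels) and percent of all start forms with a shifted start (last panel) in each Low (red) and Negative (blue) library. Bars give the mean and SD of 3 libraries, and the y axes do not start at 0. let-7d and miR-194-2 are shifted to 5p in Negative, miR-215 and miR-423 to 3p, and miR-148a-3p has fewer shifted starts.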

How the data were processed

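The authors deposited 1 table of RPM values (reads per 1000000 miRNA reads) for 14 libraries, made with a TriLink CleanTag kit per the labels' protocols. The genome build mm9 is named in the submitters' processing notes, while aligner and counting are not given in the sources used. Each column sums to 1000000 within 1.37. Steps between low values gave the depth (4.03 to 16.0 M reads, median 5.09, M being 1000000), with a smallest value near 10 reads assumed. Only 78.6 to 82.9% of low values came out whole within 0.1 read, so no count test was run.

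Values were analysed as log2(RPM + 1) with limma 3.58.1 in R 4.3.3 (5 groups, 14 libraries, trended empirical Bayes, two-sided, Benjamini-Hochberg over 588 entries, threshold 0.05). Ratios of arms and starts were fitted on the 6 libraries without a pseudocount. Seed sums took all start forms with a matched RefSeq sequence and left out 51 hairpin copies of equal sequence with values within 5%. Named miRNAs are the 15 largest changes in each direction (5 for shifted starts) among called entries that do not overlap and average at least 100 RPM in the higher group, the 10 most abundant entries, up to 5 ratios or seeds in each direction by like limits, and list members. Members, lists and rules were chosen with earlier results of these data known. Lists come from general knowledge. The procedure was tested on simulated data. Other pseudocounts, filters, scalings, a lane term, a replicate block and leaving out libraries were tried. Hairpin neighbours (10 kb) and mature sequences come from RefSeq GRCm38.p6. Figures used matplotlib 3.10.9.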

Additional observations from a re-analysis of the deposited data

How the results depend on the processing

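All 30 annotated-start miRNAs named for the size of their change kept direction and call under median-ratio rescaling and when any 1 library was left out. They were chosen from the same data as large calls without overlap, which makes this likely. The number of called entries was 388, and it was 198 with a filter at 100 RPM, which tests fewer entries, 254 with the total taken without miR-192, miR-194 and miR-215, and 338 to 374 when 1 library was left out. For the share of shifted starts, 2 calls became 3 with a pseudocount of 1 and 5 with a mean of at least 100 RPM in both parts. They became 0 to 2 when 1 library was left out. For arm ratios, 16 calls became 5 with a mean of at least 100 RPM in both parts and 5 to 13 when 1 library was left out. Without the libraries that list miR-295-3p, too few libraries remain for either kind of ratio to be decided. For seeds, 183 calls became 102 with annotated-start forms only, which tests fewer seeds, 131 with a lane term and 158 to 177 when 1 library was left out.

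Some small differences turned over with the scale. Under median-ratio rescaling and with the total without the 3 families, they became 0.37 and 0.48 for miR-192-5p, 0.048 and 0.16 for let-7b-5p, 0.45 and 0.55 for let-7g-5p, 0.40 and 0.50 for miR-17-5p, 0.58 and 0.68 for miR-20a-5p, 0.033 and 0.14 for miR-221-3p, 0.44 and 0.55 for miR-148b-3p, and 0.68 and 0.79 for miR-107-3p. miR-93-5p turned to 0.085 with the second of these. Quantile normalization gave 0.52 for let-7g-5p and 0.22 for miR-107-3p. With a lane term miR-194-2-3p was at -0.056, miR-10a-5p at 0.63 and miR-196a-2-5p at 4.08, the last also at 0.77 without the miR-295-3p libraries. Leaving out 1 library gave -0.036 to 0.28 for miR-21-5p, -0.046 to 0.27 for miR-194-2-3p and -2.22 to 1.37 for miR-196a-2-5p. Beyond what is stated, the cause was not tested.

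Libraries with the same number deviated from their group means with correlations of -0.211, 0.677 and 0.554, so the numbers were not taken as pairs. With the replicate number as a block, 396 entries, 183 seeds, 14 arm ratios and 0 shares of shifted starts were called in limma, the last with 14 at an unadjusted p under 0.05. The 2 arm ratios not called with the block were those of miR-215 (adjusted p = 0.0694) and miR-423 (adjusted p = 0.105). The block also left miR-210-3p uncalled (adjusted p = 0.0534). Values under a floor taken to be about 10 reads appear as 0, which limits what can be said of low entries.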

Other observations

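miR-10a-5p, which lies in a Hox cluster, set replicate 3 apart in both gates: it was at 59.4, 74.8 and 1199 RPM in Low and 7.04, 14.2 and 108 RPM in Negative (-2.90, adjusted p = 0.10, and 0.63 with a lane term). Its cluster relative miR-196a-2-5p was at 0, 0 and 101 RPM in Low and 0, 0 and 16.1 RPM in Negative. miR-10b-5p showed no such split, at 465, 615 and 565 RPM in Low and 35, 68.0 and 53.7 RPM in Negative. In Sublow, replicate 3 was also the highest for miR-10a-5p, at 23.7, 20.7 and 729 RPM, and for miR-196a-2-5p, at 0.66, 0 and 160 RPM. The cause was not tested.

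miR-20b-5p, on chromosome X with miR-106a, was at 66.3, 98.6 and 15.4 RPM in Low and 184, 209.9 and 54.4 RPM in Negative, highest within each gate in the libraries that list miR-295-3p.

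miR-132-3p and miR-212-3p, neighbours known from activated neurons and named here after their values were seen, were at 127, 57.7 and 69.6 RPM and at 12.2, 12.4 and 15.4 RPM in Low. In Negative miR-132-3p was at 2.93, 3.46 and 3.06 RPM (-4.29, adjusted p = 2.30e-07) and miR-212-3p is listed at 0 in all libraries.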
